A study of Zea mays with 168 samples.

Results

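On a maize cDNA array, 11 sequence identifiers were printed on exactly 12 spots each, and no other identifier was printed on more than 3. They were AA418251, AA434397, AA456109, AA485668, AA553381, AA826340, AA836830, AA873099, AA970797, H28469 and H45711, and they were 11 of the 11442 identifiers on an array of 12160 spots. They were chosen by the number of rows that carry the same identifier, and no measured value entered the choice. The study hybridised RNA from whole primary roots of maize seedlings, 3.5 days after germination, to 84 slides with 2 colours, so that each slide carried 2 samples, 1 in each dye channel. The samples came from the 4 inbred lines 002, 005, 250 and 301, each written here as a line by itself (002x002), and from the 12 hybrids that these lines give in both directions of a cross (002x005 and 005x002 form a reciprocal pair). All groups carried no treatment and shared the growth conditions of 26 °C, 16 h of light and 8 h of darkness at 60% humidity, and about 20 roots were pooled for each replicate. After the exclusions given below, each line had 16 to 19 samples and each hybrid 6 to 9.

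A spotted cDNA array carries amplified clones fixed on glass, and labelled cDNA from a pair of samples competes for each spot under different dyes. Such arrays often carry a small set of clones printed many times over the surface, which serve as controls for printing, hybridisation and local background, and some of these come from another species so that the sample holds little matching RNA. The hybrids of such a design are studied for heterosis, the faster growth of a hybrid compared with its parents, and a control clone would be a reference for how far a spot moves between genotypes without a change in a maize transcript.

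The 11 identifiers stood apart from the rest of the array in their names and in their layout, and they may be printed controls. The prefix AA (9 of the 11) and the prefix H (the other 2) occurred on no other spot, although 11838 other spots carried an identifier. None of the 11 identifiers was in the maize RefSeq gene table, but this separates them little, since only 8 of the 11431 other identifiers were in it by the same match. The copies lay in 22 of the 32 print blocks, and 10 blocks held none. Block 23 held 14 copies, at least 1 of each identifier. AA418251, AA826340 and AA970797 each had a pair of copies in that block, and in every other case the copies of an identifier lay in different blocks. The files do not name a gene, a species or a purpose for any of them, so their sequences are not given and no function is assigned here.

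Several slides needed care before any comparison. Slides 26 and 472 gave log ratios of the dyes that correlated at r = 0.99 over the other spots, and slides 28 and 48 at r = 0.98, against 0.73 for the next pair, so each of these pairs was averaged and counted as 1 slide. The deposited Cy5 column of slide 288 had a rank correlation of 0.9995 with the scans of slide 289 Cy3, and of 0.730 with its own scans. The deposited Cy3 column of slide 289 had one of 0.9993 with the scans of slide 288 Cy5, and of 0.721 with its own, so both slides were left out. On slides 0 and 1 each deposited channel followed the scans of the other dye more closely than its own. On slide 0, the Cy5 scans had a rank correlation of 0.998 with the Cy3 column and of 0.961 with the Cy5 column. The counts were repeated without slides 0 and 1 and with their channels exchanged. These steps left 80 slides and 160 samples. Slides 999 and 292 also stood apart, since the SD of the log2 values over the other spots reached 3.85 on slide 999 and 2.94 on slide 292, against a median of 1.30 over all samples.

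Levels are given as the mean of the 12 copies on the deposited log2 scale, less the median of the other identified spots in the same channel, so that 0 is a spot of median brightness. Of the 190 spots without an identifier, all but 29 lay in the edge column of a print block. These unnamed edge spots served as the comparator for background, with a mean level of -0.98 ± 0.09 (SD over the spots). AA873099 ranged over the 160 samples from -1.15 to 2.08, with a median of 0.45. It lay above the median unnamed edge spot of its own channel in all but 4 of the 160 samples, and above the 95th percentile of those spots in 110. AA485668 ranged from -1.53 to 0.52, with a median of -0.57. It exceeded the 95th percentile of the unnamed edge spots in 41 of 160 samples. AA418251, AA434397 and AA456109 exceeded it in 63, 61 and 60 samples. These 4 identifiers thus did not pass that percentile in most samples, although each lay above the median of those spots in 91.3% to 96.3% of them.

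AA553381 had a median of -0.12 and ranged from -1.73 to 1.78. AA826340 had a median of -0.29 and ranged from -0.97 to 1.70. AA836830 had a median of -0.13 and ranged from -2.65 to 1.28. These 3 exceeded the 95th percentile of the unnamed edge spots in 84, 86 and 84 of the 160 samples. AA970797 had a median of -0.049 and ranged from -0.93 to 1.59, exceeding that percentile in 98 samples. H28469 had a median of -0.10 and ranged from -1.01 to 0.64, exceeding it in 92 samples. H45711 had a median of -0.26 and ranged from -3.52 to 0.67, exceeding it in 76 samples, so that it did not pass in most samples either. The extremes were shared between identifiers: the 301x301 sample in the Cy5 channel of slide 916 was the highest for 8 of the 11, and both samples of slide 999 supplied the lowest value of AA456109, AA553381, AA836830, AA873099 and H45711.

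**Figure D1:**
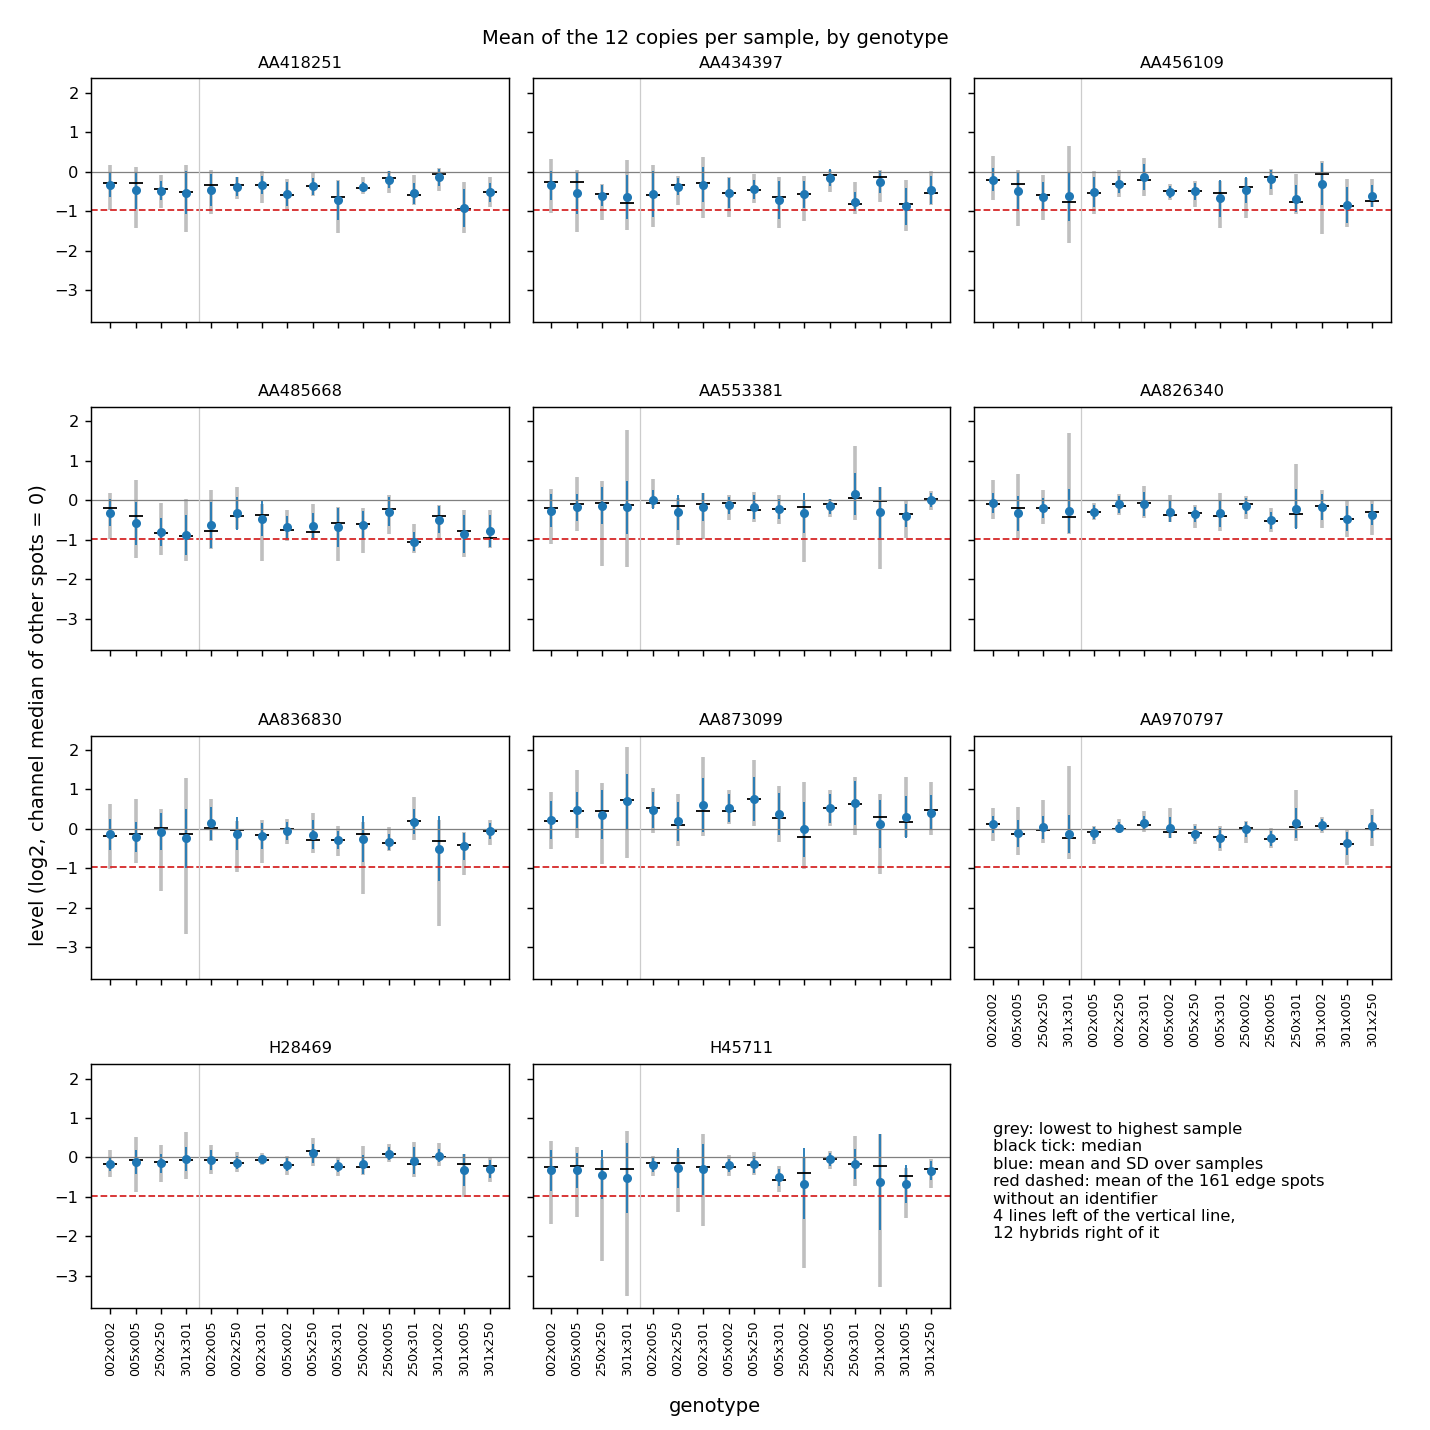
Level of each identifier (vertical axis, log2, with 0 at the channel median of the other spots) in the 16 genotypes, 4 lines on the left of each panel and 12 hybrids on the right. Grey lines run from the lowest to the highest sample, black ticks are medians, blue points and bars are the mean and SD over samples, and the red dashed line is the mean of the unnamed edge spots at -0.98; the ranges of the genotypes overlap for every identifier.

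The unpaired level of a genotype moved with the slides that carried it. The mean level of every one of the 11 identifiers was lowest on slides 273 to 309, which held samples of 8 of the 16 genotypes. Measured from the median unnamed edge spot of the same channel instead, the level on these slides was the highest of the 4 slide ranges for 6 of the 11 (AA456109, AA485668, AA826340, AA873099, AA970797 and H28469), as for H28469 with 1.14 against 0.64 to 0.98 elsewhere. AA418251 averaged -0.78 ± 0.50 (SD, n = 32 samples) there and -0.23 ± 0.22 (SD, n = 44) on slides 916 to 999. H45711 averaged -0.77 ± 0.65 on slides 273 to 309 and -0.34 ± 0.83 on slides 916 to 999. The hybrid 301x005 had the lowest unpaired mean of all genotypes for 7 of the 11 identifiers, and 6 of its 8 samples were on slides 273 to 309. Unpaired means of the genotypes spanned 0.42 (H28469) to 0.78 (AA873099) from the lowest to the highest. Within slides, the fitted level of 301x005 lay between -0.034 and 0.061 around the mean of the 16 genotypes for all 11 identifiers, with standard errors of 0.086 to 0.11. The comparisons below therefore use the log2 ratio of Cy5 to Cy3 within each slide, with the slide as the block.

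Within a sample, the SD over the 12 copies of the log2 level had a median of 0.65 over the identifiers, from 0.43 for AA434397 to 0.71 for H28469. For the 402 identifiers on 2 or 3 spots the median SD over their spots was 0.47, and the SD over all other spots was 1.30. An SD over 2 or 3 spots tends to fall below one over 12 spots of equal scatter. The values 0.65 and 0.47 therefore do not show which identifiers had copies that differed more. The copies of H28469 had mean levels over the 160 samples from -0.70 to 1.16. The copies of AA970797 ran from -0.47 to 1.03, those of AA836830 from -0.87 to 0.94, and those of AA553381 from -0.84 to 0.97. AA434397 and AA485668 were the tightest, with copies from -0.70 to -0.17 and from -0.81 to -0.29. AA873099 had copies from -0.76 to 1.15, and all 12 copies lay above the 95th percentile of the unnamed edge spots in most samples, as did 1 of the 12 copies of AA434397.

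The pattern of bright and dim copies was shared in part between sets of slides. The deviation of a copy from the median of its identifier correlated across all copies at r = 0.80 (Spearman's rho 0.62) between slides 0 to 61 and slides 916 to 999, and at r = 0.45 to 0.78 between the other pairs of slide ranges. By rank these other values were lower, with a rho of 0.27 to 0.39 for the pairs that include slides 471 to 561 and of 0.60 and 0.64 for the rest. These are descriptions over copies that share slides and print positions. By identifier, a fixed difference between copies made up 3.4% (AA485668) to 45.2% (H28469) of the variance of the single-copy levels, and the sample made up 6.3% (H28469) to 25.8% (AA485668). The rest, 48.4% to 79.7%, was mostly shared by both dyes of a slide: what remained of a copy after its own mean and the sample mean were removed correlated between Cy3 and Cy5 at r = 0.67 (AA970797) to 0.93 (AA873099).

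Of all copies, 15 lay more than 0.5 above the median of their identifier and 5 lay more than 0.5 below it. The dim ones were the copies of AA553381, AA836830, AA873099 and H45711 in block 1, at -0.59, -0.63, -1.26 and -0.96 from the median of their identifier, and a copy of AA873099 in block 9 at -0.82. The median level of the other spots was -0.42 in block 1 and -0.55 in block 9. All but 4 copies have a spot one row earlier in the same block, and of these 7 had a neighbour there with a mean level over 4, and all 7 were bright copies, 0.84 to 1.38 above the median of their identifier (median 1.22). They were copies of AA456109, AA553381, AA836830, AA970797 and H28469 in 4 blocks. The 63 copies whose neighbour lay below 0 had a median deviation of -0.087 and ranged from -1.26 to 0.87. The 16 copies with a neighbour between 1.5 and 4 had a median deviation of 0.095, and 2 of them exceeded 0.5.

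Across these copies the deviation of a copy correlated with the level of the spot one row earlier at r = 0.69 (Spearman's rho 0.52), with that of the spot one row later at r = 0.37, and with those of the spots in the columns before and after at r = 0.26 and 0.18. With the median of the print block taken from both, the first value was 0.64. In the scanner intensities, with no correction, it was 0.69 as well. For the 11093 pairs of other identified spots in neighbouring rows, the levels correlated at r = 0.38. These are descriptions over spots that share slides and print positions, and the classes of neighbour level were chosen after the values were seen. Row order here is that of the deposited value table, which does not state the order or the distance of printing.

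**Figure D2:**
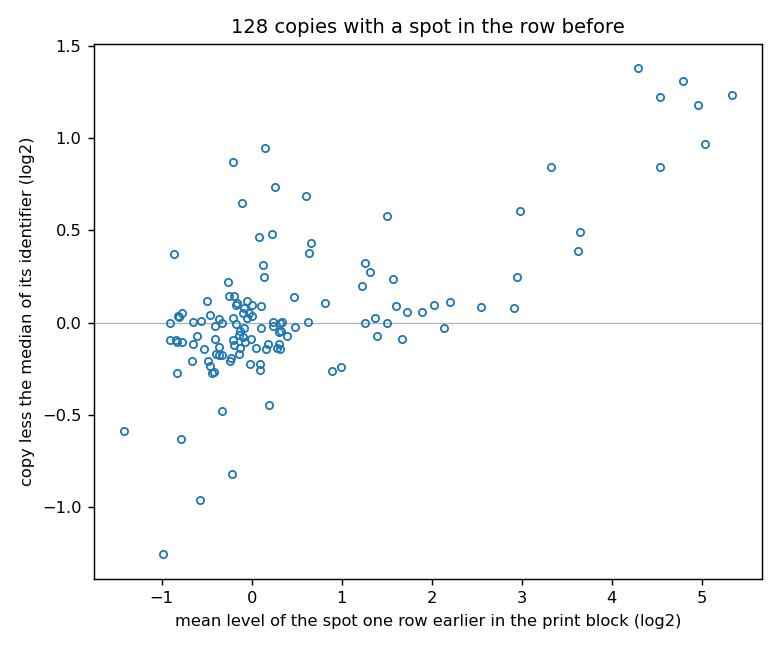
Deviation of each copy from the median of its identifier (vertical axis, log2) against the mean level of the spot one row earlier in the same print block (horizontal axis, log2, with 0 at the channel median of the other spots). The 7 copies beside a spot over 4 all lie at 0.84 or above, and copies beside dimmer spots lie mostly around 0.

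No identifier was called as different between genotypes. The overall test across the 16 genotypes (limma's moderated F on the log ratios within slides, adjusted over the 11849 features of the table by Benjamini-Hochberg) called 0 of the 11 identifiers, against 0.00844% of the table. The smallest adjusted p among the 11 was 0.989, for AA836830. None of the 11 had an unadjusted p under 0.05, against 9.43% of the table, a share at which 11 identifiers would hold few. The sample ranges of the unpaired levels overlapped in all 120 pairs of genotypes for each of the 11 identifiers. This count says little about genotypes, since unpaired levels move with the slides and no such count is given for the other spots. Of the 176 fitted levels, 11 identifiers in 16 genotypes, all but 1 lay within 0.2 of the mean of the 16 genotypes and 80.1% within 0.1, with standard errors of 0.060 to 0.12. The limma fit draws the variance of each feature toward that of the whole table (10.39 prior degrees of freedom), nearly all of it single spots. The median residual SD was 0.20 for the 11 means and 0.46 for the other spots. Standard errors and intervals of the 11 are therefore wider, and their p-values larger, than their own spread between slides gives.

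The genotypes at the ends of the fitted order differed from identifier to identifier, and the distance between them was 0.23 to 0.36. AA418251 was highest in 250x005 at 0.14 ± 0.10 (SE) and lowest in 002x301 at -0.22 ± 0.093. AA434397 had the same ends, at 0.18 ± 0.12 and -0.14 ± 0.11. H28469 also had these ends, at 0.11 ± 0.099 and -0.12 ± 0.089. The hybrid 250x005, with 6 samples, was the highest for AA456109 (0.17 ± 0.097, lowest in 005x002 at -0.095 ± 0.091) and for H45711 (0.15 ± 0.10, lowest in 250x002 at -0.11 ± 0.093) too, but it was the lowest for AA836830 (-0.12 ± 0.11, highest in 250x002 at 0.13 ± 0.098). The hybrid 250x301 was lowest for AA485668 (-0.13 ± 0.11, highest in 301x250 at 0.17 ± 0.11), for AA553381 (-0.12 ± 0.092, highest in 005x250 at 0.12 ± 0.098) and for AA970797 (-0.18 ± 0.10, highest in 002x002 at 0.13 ± 0.075), and highest for AA873099 (0.099 ± 0.096, lowest in 002x301 at -0.14 ± 0.097). AA826340 was highest in 005x250 at 0.16 ± 0.11 and lowest in 005x002 at -0.14 ± 0.11. The smallest adjusted p of any of these 176 levels was 0.316, for AA418251 in 002x301.

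The comparison of hybrids with lines asked whether the 12 hybrids together differed from the 4 lines, and 0 of the 11 identifiers were called, against 0% of the table, where 348 features had an unadjusted p under 0.05. AA873099 ranged from -0.88 to 2.08 with a median of 0.51 in the 68 samples of lines, and from -1.15 to 1.81 with a median of 0.40 in the 92 samples of hybrids. Its fitted difference, hybrids less lines, was -0.035 ± 0.031 (SE; 95% interval -0.097 to 0.027; limma adjusted p = 1.00), the largest in size of the 11. The ranges of the lines and of the hybrids overlapped almost throughout. AA826340 followed at -0.034 ± 0.034, with an interval of -0.10 to 0.034. The other 9 lay between -0.026 and 0.0076, and the bound farthest from 0 of all 11 intervals was that of AA826340 at -0.10.

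**Figure D3:**
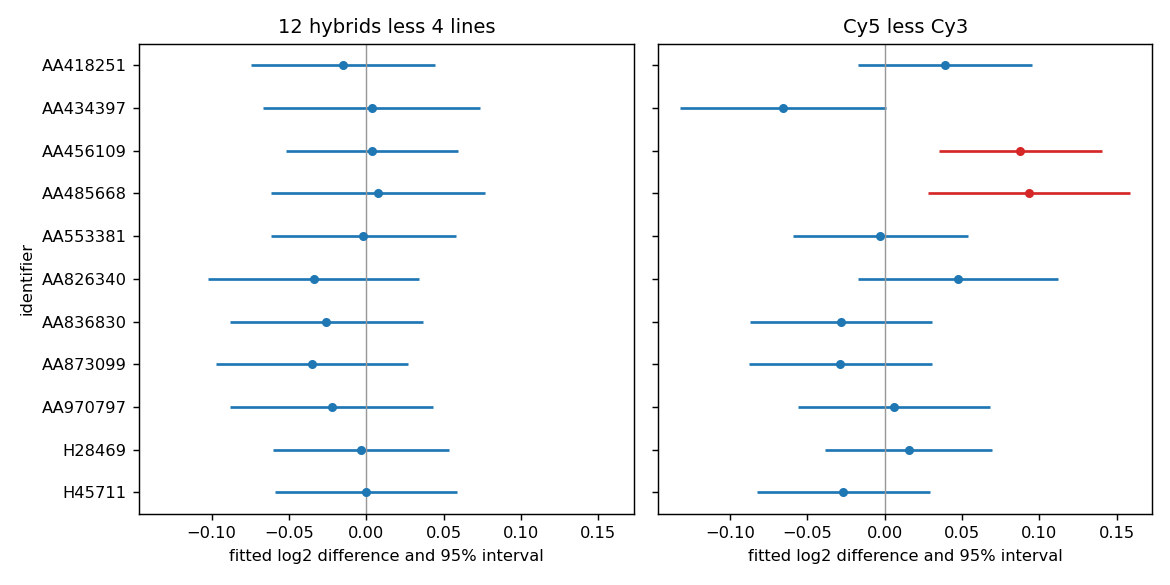
Fitted log2 differences (horizontal axis) with 95% intervals for the 11 identifiers, hybrids less lines on the left and Cy5 less Cy3 on the right, red where the adjusted p is under 0.05. All 11 intervals of the left panel include 0, and the red points are AA456109 at 0.088 and AA485668 at 0.093.

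Each of the 12 hybrids was also compared with its parental mean, which gave 12 comparisons for each of the 11 identifiers. Of these combinations 0 were called, against 0.171% of the table over the 12 hybrids. Of the same combinations 3 had an unadjusted p under 0.05, against 5.94% of the table. In size 99 of them were under 0.1, a count that is not given for the other spots. The hybrid 250x005 had the most calls in the table, 1.76% of the features, and 0 of the 11 identifiers were among them. In 002x301 and 250x002, 0.245% and 0.0253% of the table and 0 of the 11 were called. Between lines, 0 of the 66 combinations of identifier and line pair were called, against 0.00422% of the table. Of these 66, 1 had an unadjusted p under 0.05, against 5.83% of the table, and the largest difference was 0.22. The pair of lines 002 and 005 had the most calls in the table, 0.0169%, with 0 of the 11. Between the hybrids of a reciprocal pair, 0 of 66 combinations were called, against 0.571% of the table. Of these 66, 2 had an unadjusted p under 0.05, against 6.55% of the table, and the largest size was 0.30. All calls between reciprocal hybrids came from 005x250 against 250x005, where 3.43% of the table and 0 of the 11 identifiers were called.

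The 3 comparisons with the smallest unadjusted p, none of which passed the threshold, were these. AA485668 ranged from -1.34 to -0.59 with a median of -1.06 in the 8 samples of 250x301, and from -1.22 to -0.25 with a median of -0.95 in the 8 samples of 301x250. The groups overlapped, and the fitted difference was -0.30 ± 0.13 (SE; limma p = 0.0213, adjusted p = 0.996). AA418251 ranged from -0.80 to 0.014 with a median of -0.35 in the 8 samples of 002x301, and the samples of the parents covered -0.99 to 0.16 in 002x002 (median -0.30, n = 16) and -1.54 to 0.18 in 301x301 (median -0.51, n = 19). The hybrid lay within the range of both parents, and the fitted difference from their mean was -0.19 ± 0.089 (SE; limma p = 0.0387, adjusted p = 0.321). AA826340 ranged from -0.69 to -0.13 with a median of -0.33 in the 7 samples of 005x250, and from -0.81 to -0.21 with a median of -0.53 in the 6 samples of 250x005. These groups overlapped too, and the fitted difference was 0.28 ± 0.14 (SE; limma p = 0.0445, adjusted p = 0.229).

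The copies taken one by one gave nearly the same counts. Among the single copies, 0 were called between hybrids and lines. A copy of AA456109 in block 12 was called in 250x005 against its parental mean (0.64 ± 0.18, limma adjusted p = 0.0396), but the mean of the 12 copies gave 0.20 ± 0.097 (adjusted p = 0.299). A copy of AA970797 in block 4 was called between 005x250 and 250x005 (0.81 ± 0.22, limma adjusted p = 0.0260). The mean of its 12 copies gave 0.23 ± 0.13 (adjusted p = 0.317). In these comparisons 0.758% of the single copies were called, against 1.77% of the other spots in 250x005 and 3.39% between 005x250 and 250x005. Over the 80 slides, the log ratios of a copy followed those of the spot one row earlier more closely, by the median r over copies, than those of the other 11 copies of its identifier at every level of that spot: the median with it was 0.64 where it lay below 0 and 0.52 where it lay over 4, against 0.26 and 0.31 with the mean of the other copies. That spot lies in the same print block, and the other copies lie nearly all in other blocks, so this sets 1 block against different blocks. Copies of different identifiers in 1 block had a median r of 0.39 with each other. The values here are without block centring, and other neighbours were not compared in this way.

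The dye comparison was the one in which identifiers passed the threshold. Cy5 was higher than Cy3 for 2 of the 11, against 13.8% of the table called in either direction and 7.54% with Cy5 higher. For AA456109 the log ratio of Cy5 to Cy3 ranged from -0.22 to 0.71 over the 80 slides, with a median of 0.058. It was above 0 on 55 of 80 slides, and the fitted difference was 0.088 ± 0.027 (SE; limma adjusted p = 0.0188). For AA485668 it ranged from -0.46 to 0.72, with a median of 0.056. It was above 0 on 48 of 80 slides, and the fitted difference was 0.093 ± 0.033 (SE; limma adjusted p = 0.0453). Of the copies of AA456109 and AA485668, 10 and 11 of 12 had a fitted dye difference above 0, and 3 copies of each were called. AA418251, AA826340 and H28469, which were not called, each had 9 of 12 copies above 0. Copies share the slides and make up the mean that was tested, so these counts are no separate support. AA434397 had a fitted difference of -0.066 ± 0.033 (limma adjusted p = 0.172), and its ratio was above 0 on 29 of 80 slides. The other 8 lay between -0.029 and 0.047. The call of AA485668 was lost in 32 of the 80 fits that left out 1 slide, and neither call held with the dyes of the label field on the slides where it contradicts the sample title.

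Averaging the copies narrowed the error of an identifier by less than independent copies would. The residual SD of the log ratio in the fit had a median of 0.20 over the means of 12 copies, from 0.16 for AA456109 to 0.25 for AA434397. Single copies had a median of 0.45, and the median of the other spots was 0.46. If the copies of a slide had varied independently, the mean of 12 would have had a residual SD of 0.14 (median over the identifiers). The observed value was 1.27 (AA456109) to 1.82 (AA434397) times as large. Within a slide, the SD of the log ratio over the 12 copies had a median of 0.35, from 0.28 for H28469 to 0.38 for AA836830, and it fell to 0.26 when each print block was centred on its own median. The SD over slides of the mean of the copies was 0.17 to 0.24.

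Copies of the same block varied together more than copies of the same identifier. Over the 80 slides, the log ratios of 2 copies of 1 identifier in different blocks correlated with a median r of 0.12 (723 pairs), those of copies of different identifiers in different blocks with a median of 0.014 (7526 pairs), and those of copies of different identifiers in 1 block with a median of 0.39 (394 pairs). After each block was centred, these medians were 0.20, 0.049 and 0.13. AA434397 and AA485668 had the highest medians among their own copies after centring, at 0.40 and 0.31, and AA456109 the lowest, at 0.081. The 403 pairs of spots of identifiers on 2 or 3 spots, in different blocks, had a median of 0.057.

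The means of the copies were grouped into 3 sets by their log ratios over the 80 slides, and the sets were chosen after these correlations were seen. AA418251, AA434397, AA456109 and AA485668 correlated with each other at r = 0.59 to 0.67. AA553381, AA826340, AA836830 and AA970797 correlated at r = 0.46 to 0.74. AA873099, H28469 and H45711 correlated at r = 0.40 to 0.68. Between the first and the second set, r ran from -0.17 to 0.21, and between the second and the third from -0.39 to 0.30. The third set was not separate from the first: r between them ran from -0.32 to 0.44, and AA418251 correlated with H28469 at 0.44 and with H45711 at 0.41, both above the lowest value within the third set.

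The first 2 sets were separate from each other under other processing too, and the third was again not separate. These values come from the same slides by which the sets were chosen, so they are no independent test of the sets. After block centring the ranges within the sets were 0.56 to 0.68, 0.57 to 0.78 and 0.29 to 0.70. Between the first and the second set r then reached 0.25, between the first and the third 0.60, and between the second and the third 0.25. In the scanner tables the ranges within the sets were 0.47 to 0.70, 0.48 to 0.78 and 0.39 to 0.66. Between the first and the second set r reached 0.13 there, and the third set reached 0.42 with each of the other sets, above its own lowest value.

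The first set was also the one that moved with the spots that carry no identifier. The median log ratio of the unnamed edge spots correlated over the 80 slides with AA485668 at r = 0.70, with AA434397 at 0.65, with AA456109 at 0.59 and with AA418251 at 0.48. For the other 7 identifiers r ran from -0.40 (AA836830) to 0.15 (H45711). By rank the contrast was smaller: Spearman's rho was 0.54 (AA456109) to 0.70 (AA485668) in the first set. In the other 7 it was -0.26 (AA873099) to 0.27 (H45711), with -0.086 for AA836830. The same 4 identifiers were those that exceeded the 95th percentile of the unnamed edge spots in the fewest samples. All these correlations are over slides, which share their hybridisation and scan.

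**Figure D4:**
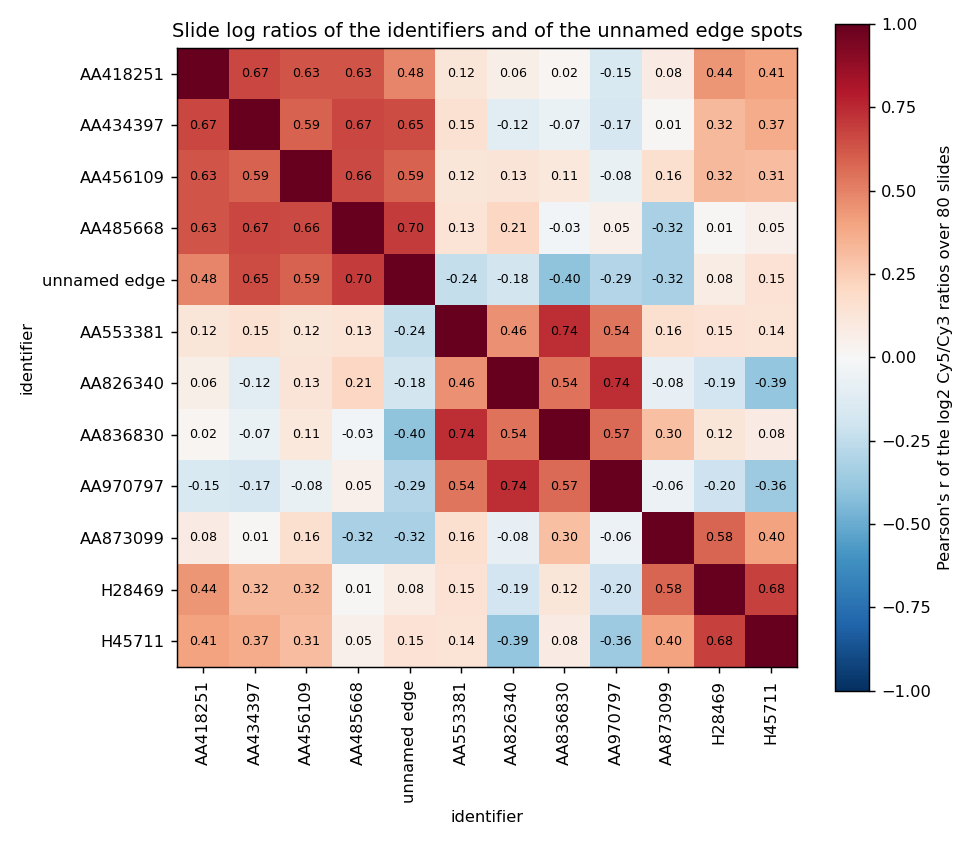
Pearson's r (colour and printed value) between the log2 Cy5/Cy3 ratios of the 11 identifiers and of the unnamed edge spots over 80 slides. AA418251, AA434397, AA456109 and AA485668 form a block with the unnamed edge spots, with values of 0.48 to 0.70, AA553381, AA826340, AA836830 and AA970797 form a block with values of 0.46 to 0.74, and AA873099, H28469 and H45711 correlate at 0.40 to 0.68 with each other but also at up to 0.44 with the first block.

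For each identifier, the other spot with the most similar log ratios over the 80 slides was picked out of the 11838. It was BM079608 for AA826340 (r = 0.73), BM350491 for AA970797 (0.72), AI901661 for AA873099 (0.69), AI664918 for AA485668 (0.68), AI861298 for H28469 (0.65) and AW036971 for AA434397 (0.64). For AA418251 it was AI987461 (0.62), for H45711 AI948227 (0.62), for AA553381 BE055961 (0.60), for AA456109 AW017559 (0.59) and for AA836830 BM073040 (0.58). The number of other spots with r over 0.5 ran from 22 for AA553381 to 283 for AA826340. Each identifier except AA873099 and AA485668 correlated with another of the 11 at an r above that with its nearest spot among the rest, but a value of the 11 is a mean of 12 spots and a value of the rest is a single spot.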

How the data were processed

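The deposited value table holds log2 values that the authors normalized, 1 scan per channel, by a method not given in the sources used here, so that what it did to local background or dye trends is unknown. The deposited scanner tables hold linear intensities of each channel at rising gain, per the file headers, and were used to check which column belongs to which channel and as an alternative; 18 of their columns match no labelled sample and were not used. The log2 values of the 12 copies were averaged per sample, and the log2 ratio of Cy5 to Cy3 was then taken within each slide. limma 3.58.1 (R 4.3.3) was fitted to 11849 features, 11838 single spots and the 11 means, with the 16 genotypes and the dye as terms and the slide as block (64 residual degrees of freedom), and p-values were adjusted by Benjamini-Hochberg over the table within each comparison, with a threshold of 0.05. The dye is the one in the sample title, except on slide 930, where the titles give both channels the same dye; titles and label fields contradict each other for 20 samples. No label says that samples came from separate plantings, so p-values measure the spread between these pools. The rows were checked against the identifiers: the pooled SD over copies was 0.41 as deposited and at least 0.71 at each of the other 12159 shifts of the rows. The fit was tested on simulated data. The named items are all 11 identifiers, the ends of each fitted order, the 3 comparisons of smallest p where none passed, and the nearest other spot of each. The members and all lists were chosen with earlier results of these data known. The alternatives were the scanner tables, other centring, weights and dyes, slides left out and single ranges of slide numbers. Arrays carry no read depth, and their number limits the precision.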

Additional observations from a re-analysis of the deposited data

Results flagged for a closer look

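Over the 11 identifiers in each of the 12 hybrids, 10.6% of the groups (14) held 1 sample that lay far from the rest of its group by Dixon's test at the 95% level, which chance alone gives in about 1 in 20 groups. The 14 values came from 7 slides and 6 identifiers, and the identifiers of a slide share its hybridisation. On slide 292, the Cy5 sample of 250x002 was the lowest of its 8 for AA456109 (-1.18, group median -0.40), AA553381 (-1.57, median -0.16), AA836830 (-1.65, median -0.13) and H45711 (-2.81, median -0.41). On slide 999, the Cy5 sample of 301x002 was the lowest of its 9 for AA456109 (-1.57, median -0.068) and AA836830 (-2.47, median -0.30). The SD of the log2 values over the other spots was 2.94 in the first of these samples and 3.85 in the second, against a median of 1.30 over all 160 samples; its part in the low levels was not tested. On slide 297, the Cy3 sample of 002x250 was the lowest of its 8 for AA836830 (-1.09, median -0.026) and H45711 (-1.39, median -0.15), with an SD over the other spots of 2.04. On slide 561, the Cy3 sample of 002x301 was the lowest of its 8 for AA553381 (-0.99, median -0.096) and H45711 (-1.74, median -0.24), with an SD of 2.48.

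On slide 559, the Cy3 sample of 002x301 was the lowest of its 8 for AA485668 (-1.53, median -0.38). On slide 916, the Cy3 sample of 250x301 was the highest of its 8 for AA553381 (1.37, median 0.051) and AA826340 (0.91, median -0.35). On slide 27, the Cy3 sample of 002x005 was the highest of its 7 for AA553381 (0.53, median -0.076). These are levels of single channels, and the comparisons between genotypes use ratios within slides: leaving out any of these slides left the counts of genotype calls at 0.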

How the results depend on the processing

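The counts of calls between genotypes held under nearly every alternative: across all 16 genotypes, between hybrids and lines, against the parental mean and between lines, 0 identifiers were called under each of the alternatives run and in each of the 80 fits that left out 1 slide (0 to 0). Hybrids against lines could not be estimated within single ranges of slide numbers. Between reciprocal hybrids the count was 0 as well, except that keeping slides 288 and 289 as deposited gave 5 calls; exchanging their 2 mismatched columns, an alternative chosen after seeing the data, gave 0. The 2 dye calls became 0 with slides 288 and 289 kept, with log ratios centred on the slide median, with loess on the deposited values, with the dyes of the label field and within each of the 4 ranges of slide numbers. They became 1 with the median over the copies, without slides 18, 19 and 46 and with print blocks centred (added after seeing the data), and 4 with array quality weights. The scanner tables also gave 2 calls, but not of the same 2 identifiers. There AA485668 was not called (0.119, limma adjusted p = 0.192), and AA434397 was called with Cy3 higher (-0.20, limma adjusted p = 0.0193). Leaving out 1 slide gave 1 to 2 dye calls. The dye difference of AA485668 turned to -0.021 (adjusted p = 0.910) on slides 273 to 309 alone. In none of these cases was the cause tested. The scanner tables gave a median SD over copies of 1.05 for the level and 0.607 for the log ratio, against 0.654 and 0.353 in the deposited values; the scaled median absolute deviation gave 0.487 and 0.278, and block centring 0.258 for the log ratio. Samples could not be paired by replicate number, because these numbers run serially over all samples in the titles and none is shared between groups. The 2 samples of a slide were paired instead, and the slide is the pairing used throughout. The signal limits all of this: 5 of the 11 identifiers did not pass the 95th percentile of the unnamed edge spots in most samples. Small differences between genotypes may have gone undetected in this fit. AA485668 in 250x301 less 301x250 had a 95% interval of -0.55 to -0.045 but a limma adjusted p of 0.996. The intervals given are not adjusted over the table, so a call could need more than an interval that leaves out 0. Those intervals are wider than the spread of the 11 means alone gives, since the fit draws their variance toward that of single spots.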
